A study of Mus musculus with 6 samples.

Results

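Mitochondrial and peroxisomal fatty acid oxidation was followed through 32 genes, fixed by symbol, among the 21399 genes listed for each of 6 mouse RNA sequencing libraries. The genes encode the carnitine shuttle, the enzymes of β-oxidation in both organelles and the proteins that pass the electrons on. Libraries were labelled WT (3) or KO (3). Per the series' design text, microglia of mice carrying the CD45.2 form of the leukocyte protein CD45 were deprived of oxygen and glucose and then reoxygenated. Peritoneal macrophages of CD45.1 mice joined them during reoxygenation, and cells were sorted before sequencing. Both groups shared the deprivation, the reoxygenation and the macrophages, and differed in the genotype of the microglia. The sources used here do not name the deleted gene, how it was deleted, the age of the mice or the time in co-culture. The series title names PPARα. The sorted fraction is described as microglia but with the CD45.1 mark of the added macrophages, and each label names both cell types. No label says that libraries of 1 group are from separate animals or cultures, so a p-value here speaks only of library-to-library spread, which can be technical.

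Fatty acids enter the mitochondrial matrix as carnitine esters and are then shortened by repeated rounds of dehydrogenation, hydration, a further dehydrogenation and thiolysis. Each round yields acetyl-CoA and electrons for the respiratory chain. Peroxisomes shorten very long and branched chains with a separate set of enzymes and hand shortened chains to mitochondria. Many of these genes are textbook targets of PPARα, a nuclear receptor that binds DNA together with RXR and is activated by fatty acids. In macrophages, fatty acid oxidation is known for its part in lipid handling and alternative activation.

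The libraries held 34114062 to 37694559 reads recovered from the FPKM values (fragments per kilobase of transcript, scaled to sequencing depth). Ppara itself was near the limit of detection, at 0.0290, 0.00259 and 0.00551 FPKM (11, 1 and 2 reads) in WT and 0.0325, 0.0588 and 0.0270 FPKM (13, 23 and 10 reads) in KO. These values do not check the labels. B cell markers were abundant throughout, summing to 4707 to 5394 FPKM over 10 genes in WT and 4158 to 4557 FPKM in KO. The sum over 10 core macrophage markers was 1719, 3636 and 1223 FPKM in WT replicates 1 to 3 and 10666, 5665 and 4551 FPKM in KO replicates 1 to 3, so that WT replicate 2 lay nearest to the KO libraries. The 14 resident peritoneal macrophage markers summed to 491 to 1417 FPKM in WT libraries and 2655 to 3513 FPKM in KO. Of 11 microglia markers, 10 were listed, and they summed to 94.0 to 116 FPKM in WT libraries and 100.1 to 114 FPKM in KO. The defining markers P2ry12 and Sall1 reached at most 1.09 and 0.152 FPKM, and Tmem119 was at 0.461, 1.04 and 0.203 FPKM in WT libraries and 2.24, 2.14 and 2.43 FPKM in KO libraries. T and NK cell markers summed to 394 to 487 FPKM in WT libraries and 358 to 401 FPKM in KO, and mast cell markers to 7.14 to 375 FPKM in WT libraries and 69.6 to 304 FPKM in KO. Markers of brain glia and neurons summed to 16.2 to 23.1 FPKM, those of mesothelium and fibroblasts to 0.715 to 28.5 FPKM and those of adipocytes to at most 0.307 FPKM. In bulk RNA, fewer cells of a type and less RNA per cell cannot be told apart, here and in all results that follow.

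Fatty acid oxidation genes as a whole stood at a similar summed level in both groups on the unscaled FPKM values. The 32 genes added up to 568, 642 and 593 FPKM in WT libraries and to 619, 585 and 592 FPKM in KO, with means of 601 ± 37.8 and 599 ± 17.99 FPKM (SD, n = 3). WT replicate 2 was the highest and WT replicate 1 the lowest of the 6 libraries, so the unscaled KO values lay inside the WT range. Total FPKM over all genes was also lowest in WT replicate 1 (391346) and highest in WT replicate 2 (439451). It was 409281 in WT replicate 3 and 439226, 408673 and 414931 in KO replicates 1 to 3. The sums were not scaled to these totals. Set against the total of its library, each KO sum was a smaller share than each WT sum, so the overlap was lost on a common total. With libraries rescaled to a common total, the median log2 difference was -0.04 over the fatty acid oxidation genes tested below. Over all genes tested it was then -0.09. Of the 32 genes, 30 had a mean of at least 1 FPKM and were tested on log2(FPKM + 1) with limma. Cpt1b and Pex11a lay below that filter. None of the 30 was called higher or lower at an adjusted p under 0.05, where 3 of all 10732 genes tested (0.0280%) were called higher and 0% lower. At an unadjusted limma p under 0.05 stood 2 genes, Abcd3 and Hsd17b4, both higher in KO, beside 8.86% of all genes higher and 8.21% lower. The 3 KO values all lay above the 3 WT values for Decr1, Abcd3 and Hsd17b4 and all below them for Slc22a5 and Acox3. Over all genes tested, 9.75% separated upward and 15.2% downward.

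The intervals of these differences were narrow. A 1.5-fold change of FPKM + 1 is 0.58 on the log2 scale, and for low genes it is more than 1.5-fold in FPKM itself. For 28 of the 30 genes (93.3%) the 95% interval of the KO minus WT difference lay within that bound either way. The same held for 80.4% of all genes tested. The exceptions were Echs1, with an upper bound of 0.65, and Abcd3, with an upper bound of 0.59. Differences ran from -0.25 for Slc22a5 to 0.37 for Abcd3, with a median of -0.01 beside -0.06 over all genes tested. The highest library exceeded the lowest 1.25-fold at the median over the tested fatty acid oxidation genes, 1.38-fold over all genes and 7.59-fold over the core macrophage markers. Recovered reads per library ran from 354 to 10239 for the tested genes, which puts the counting error (SD) between 0.988% and 5.31% of a value. Without WT replicate 2, 4.79% of all genes were called higher and 0.354% lower, and still 0 of the 30 fatty acid oxidation genes were called. The lowest adjusted limma p among them was then 0.066, for Hsd17b4, and 0.17 to 0.43 when any other library was left out.

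**Figure D1:**
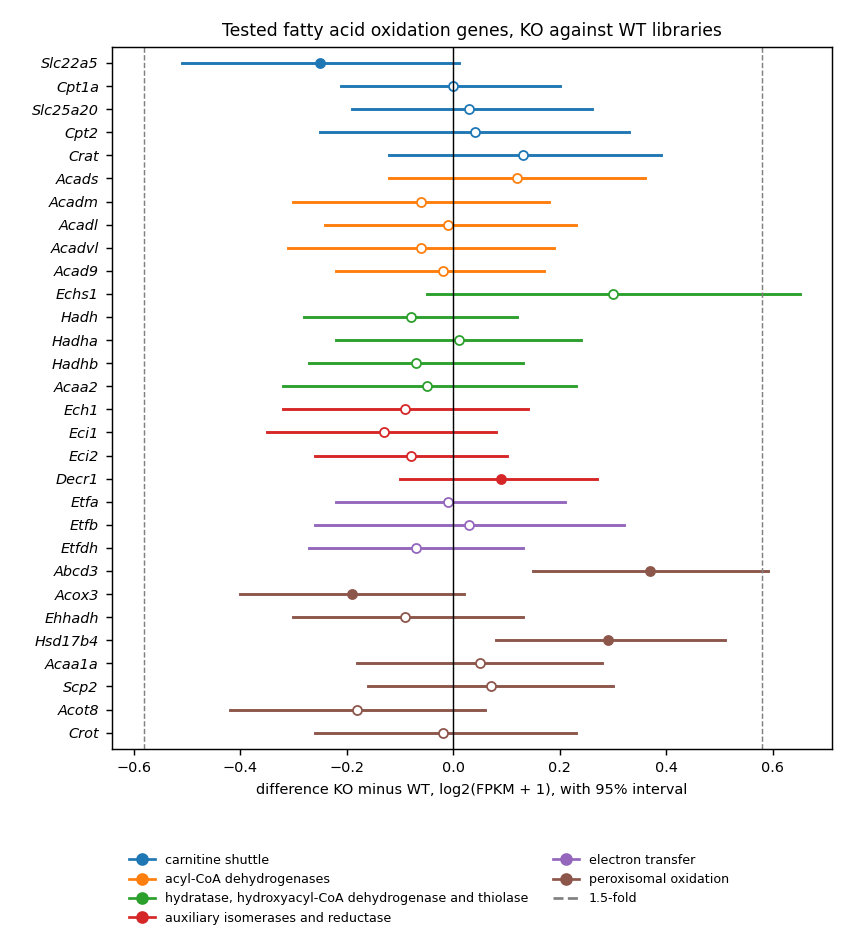
Differences between KO and WT libraries (x axis, log2(FPKM + 1)) for the 30 tested fatty acid oxidation genes, coloured by role. Points are limma estimates, lines 95% intervals, filled points genes whose groups did not overlap, and dashed lines 1.5-fold in FPKM + 1. The intervals of 28 genes lie between the dashed lines.

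None of the 5 tested genes of the carnitine shuttle was called, and 1 of them separated between the groups. Cpt1a, the rate-limiting acyltransferase of the outer mitochondrial membrane, stood at 20.8, 18.4 and 18.1 FPKM in WT libraries and 19.3, 19.8 and 18.1 FPKM in KO. The groups overlapped fully, at 19.1 ± 1.48 and 19.0 ± 0.845 FPKM (SD, n = 3), and the 95% interval of the log2 difference ran from -0.21 to 0.20 (limma adjusted p = 0.99). Slc25a20, the carrier that exchanges acylcarnitine for carnitine across the inner membrane, was at 13.5 to 15.2 FPKM in WT libraries and 13.4 to 16.1 FPKM in KO. Cpt2, which releases the acyl-CoA in the matrix, stood at 6.37, 6.51 and 5.33 FPKM in WT libraries and 7.39, 5.64 and 5.83 FPKM in KO, with the interval from -0.25 to 0.33. Crat, which buffers short acyl groups as carnitine esters, was at 9.79 ± 1.22 FPKM in WT libraries and 10.8 ± 0.915 FPKM in KO.

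Slc22a5, the plasma membrane carnitine transporter OCTN2, stood at 8.18, 7.40 and 8.79 FPKM in WT libraries and 5.76, 7.26 and 7.11 FPKM in KO. All KO values were below the lowest WT value, though KO replicate 2 was only just below WT replicate 2. The means were 8.12 ± 0.693 and 6.71 ± 0.827 FPKM (SD, n = 3), a log2 difference of -0.25 with a 95% interval from -0.51 to 0.01 (limma adjusted p = 0.31). The separation was lost with libraries rescaled to a common total and under median-of-ratios scaling. The difference was -0.15 without KO replicate 1. With the core macrophage level as a covariate it was 0.07, and with the B cell level -0.04. B cell markers were lower in KO, at 5092 ± 351 and 4307 ± 218 FPKM summed, and their part in the Slc22a5 difference was not tested. Both covariates differ between the groups themselves, so here and below such fits cannot tell marker level and group apart.

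Cpt1b, the muscle form of the acyltransferase, was nearly silent. WT libraries held 14, 13 and 11 reads (0.133, 0.121 and 0.109 FPKM) and KO libraries 6, 5 and 7 reads (0.0540, 0.0461 and 0.0680 FPKM). The groups did not overlap, but 3 libraries against 3 allow no exact two-sided permutation p below 0.1. Without the filter on low values, limma gave an adjusted p = 0.24. The annotation places Gm44502 across Cpt1b on the same strand, so these few reads may belong to either gene. Cpt1c, the brain form, taken from the list of other β-oxidation genes, was at 0.820, 0.549 and 0.0565 FPKM in WT libraries and 0.0427, 0.0437 and 0.175 FPKM in KO. Cpt1a was thus the only form of the 3 above 1 FPKM in any library.

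The acyl-CoA dehydrogenases, which carry out the opening step of each round for chains of different length, did not separate by group. Acadvl, for very long chains, was at 31.0, 38.3 and 30.8 FPKM in WT libraries and 33.6, 31.0 and 30.9 FPKM in KO, with WT replicate 2 highest. Acadl, for long chains, had means of 26.5 ± 2.84 and 26.3 ± 1.69 FPKM in WT libraries and KO, and Acadm, for medium chains, 26.2 ± 1.64 and 25.2 ± 2.75 FPKM (SD, n = 3). Acads, for short chains, stood at 14.1 ± 1.21 and 15.4 ± 1.49 FPKM. Acad9, which also serves in the assembly of respiratory complex I, stood at 8.70 ± 0.523 and 8.53 ± 0.266 FPKM. Log2 differences of the 5 genes ran from -0.06 to 0.12, and none of the 5 intervals reached 1.5-fold.

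Of the enzymes that complete the mitochondrial round, Echs1 varied most. This short-chain enoyl-CoA hydratase was at 19.9, 23.9 and 26.1 FPKM in WT libraries and 35.1, 27.1 and 24.8 FPKM in KO. KO replicate 1 stood above the other libraries, and KO replicate 3 fell inside the WT range. The log2 difference was 0.30 with an interval from -0.05 to 0.65 (limma adjusted p = 0.36). An opposite-strand gene, Paox, overlaps Echs1 in the annotation, and without a stated strand setting their reads cannot be told apart.

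Hadha and Hadhb encode the 2 subunits of the trifunctional protein, which handles long chains at the inner membrane, and lie head to head on mm10 chromosome 5 (30118304 to 30155162, minus strand, and 30155248 to 30184593, plus strand). Hadha stood at 48.8, 60.1 and 50.4 FPKM in WT libraries and 55.4, 52.8 and 51.4 FPKM in KO, and Hadhb at 9.46, 9.62 and 9.69 FPKM in WT libraries and 8.44, 8.96 and 9.87 FPKM in KO. The Hadha to Hadhb ratio within a library was 5.53 ± 0.616 in WT libraries and 5.89 ± 0.678 in KO (SD, n = 3), with overlapping groups. Hadh, the dehydrogenase for shorter chains, was at 19.1 ± 0.475 FPKM in WT libraries and 17.99 ± 1.45 FPKM in KO. The mitochondrial thiolase Acaa2 was at 21.7 ± 3.21 and 20.8 ± 1.02 FPKM.

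Auxiliary enzymes deal with double bonds that the main round cannot pass. Ech1, a dienoyl-CoA isomerase found in both organelles, had the highest mean of the 32 genes at 58.2, 73.0 and 67.2 FPKM in WT libraries and 60.6, 61.3 and 63.3 FPKM in KO. Its WT libraries enclosed all 3 KO libraries. The enoyl-CoA isomerases Eci1 and Eci2 were at 24.8 ± 1.82 and 11.1 ± 0.381 FPKM in WT libraries and at 22.5 ± 1.54 and 10.4 ± 0.227 FPKM in KO (SD, n = 3). Decr1, the mitochondrial dienoyl-CoA reductase, was at 4.44 FPKM in each WT library (478, 487 and 458 reads) and at 4.96, 4.71 and 4.69 FPKM in KO. The groups did not overlap, but the log2 difference was 0.09 with an interval from -0.10 to 0.27 (limma adjusted p = 0.60), and the 3 WT values lay closer together than the counting error of such read numbers. With libraries rescaled to a common total, the Decr1 groups overlapped.

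Electron transfer flavoprotein and its dehydrogenase pass electrons from the acyl-CoA dehydrogenases to ubiquinone. The flavoprotein subunit Etfb stood at 33.7, 41.0 and 31.2 FPKM in WT libraries and 40.1, 33.1 and 34.5 FPKM in KO, and its partner Etfa at 3.83, 4.42 and 3.88 FPKM in WT libraries and 4.01, 3.84 and 4.21 FPKM in KO. Etfdh was at 15.1 ± 0.839 FPKM in WT libraries and 14.4 ± 0.910 FPKM in KO (SD, n = 3). The Etfb to Etfa ratio was 8.71 ± 0.627 in WT libraries and 8.94 ± 0.947 in KO, and the groups overlapped. With the core macrophage level as a covariate, the Etfb difference was -0.40 in place of 0.03 (limma adjusted p = 0.43).

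The distance between partner subunits depends on the transcript lengths behind the FPKM values. Taking the sum of recovered reads as the depth, the length implied by the reads and FPKM of Etfa was 9864 bases, whereas the longest Etfa transcript of GENCODE M21 has 1392 bases. For Etfb the implied length was 921 bases and the longest transcript 893 bases. Etfa reads per library numbered 1306 to 1585 and Etfb reads 980 to 1391, so the genes were close in reads and 8.71-fold apart in FPKM. Hadhb had an implied length of 6032 bases against 4388 annotated, and Hadha 2766 against 4017. Of the 32 genes, 21 had an implied length within 1.5 times the longest annotated transcript, 5 above and 6 below. Acot8, Crot, Acox3 and Abcd3 were the others above, at 2.63, 2.28, 1.99 and 1.93 times. Comparisons between genes on the FPKM scale carry these factors, and comparisons of 1 gene between libraries do not.

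**Figure D2:**
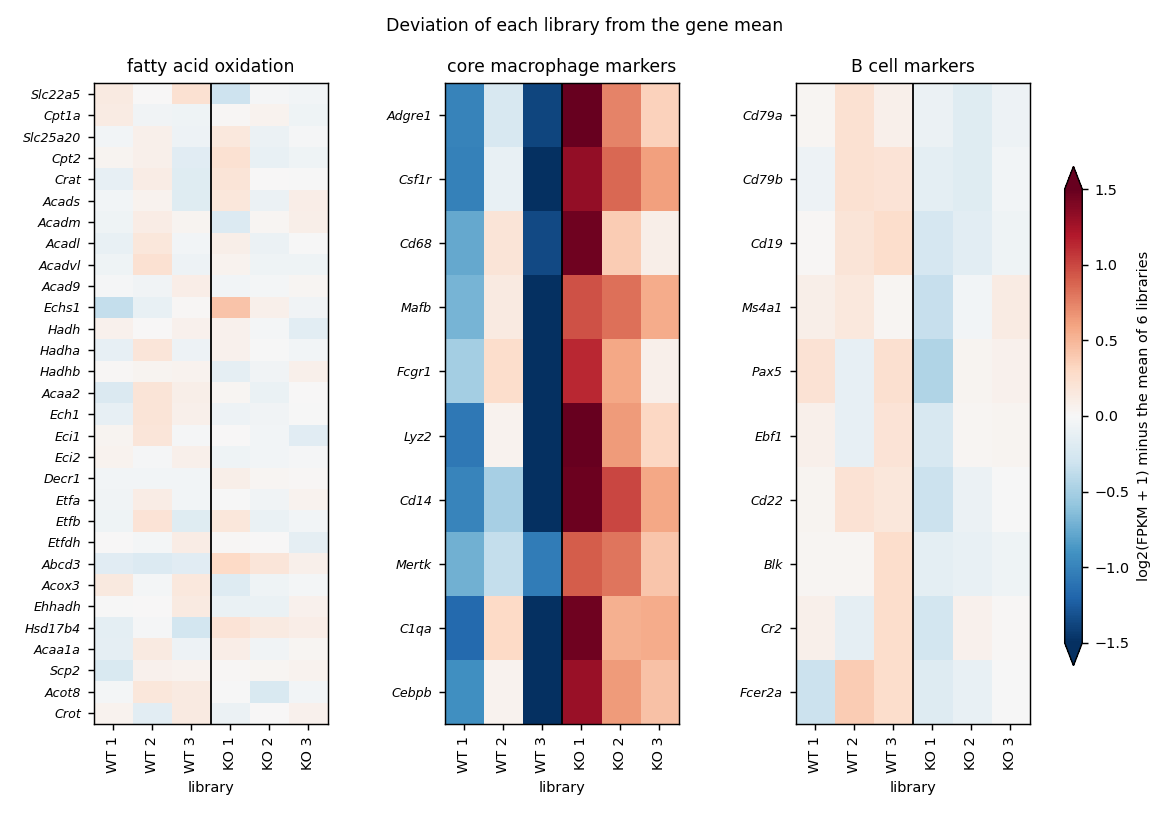
Deviation of each library (columns) from the mean of its gene over the 6 libraries, on log2(FPKM + 1), for the tested fatty acid oxidation genes, core macrophage markers and B cell markers; colours saturate at 1.5. The fatty acid oxidation genes stay pale in all libraries, while the macrophage markers run from low in WT replicate 3 to high in KO replicate 1.

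Of 8 tested peroxisomal genes, 2 separated upward and 1 downward, where 9.75% and 15.2% of all genes did, and none was called. Abcd3, a half-transporter that imports branched-chain and dicarboxylic acyl-CoAs into peroxisomes (mm10 chromosome 3, 121758774 to 121815302, minus strand), stood at 2.97, 2.87 and 2.99 FPKM in WT libraries and 4.49, 4.08 and 3.72 FPKM in KO. Each KO library lay above every WT library, and the WT values were nearly equal. The mean was 1.39-fold higher in KO, at 2.94 ± 0.0637 and 4.10 ± 0.385 FPKM (SD, n = 3). On log2(FPKM + 1), which lowers differences of low genes, it was 0.37 with a 95% interval from 0.15 to 0.59. This difference did not pass over all genes (limma adjusted p = 0.14). It was 0.30 with the core macrophage covariate and 0.25 with a B cell covariate. With a pseudocount of 5 it was 0.19, the lowest of all settings. The annotation places Gm43609 and 4633401B06Rik on the same strand within Abcd3, so some of its reads may be theirs.

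Hsd17b4, the multifunctional enzyme that hydrates and dehydrogenates very long and branched chains, was at 19.3, 21.4 and 17.6 FPKM in WT libraries and 25.0, 23.7 and 23.3 FPKM in KO. All KO libraries lay above the WT libraries, and WT replicate 2 was the highest of its group. The mean was 1.23-fold higher in KO, at 19.4 ± 1.88 and 24.0 ± 0.882 FPKM (SD, n = 3), with a log2 difference of 0.29, an interval from 0.08 to 0.51 and a limma adjusted p = 0.19. With the core macrophage level as a covariate the difference was 0.04, and with the B cell level 0.18. In the annotation Cd63-ps, a transcribed processed pseudogene, overlaps Hsd17b4 on the same strand, so some Hsd17b4 reads may belong to it. Ehhadh, which carries out the same pair of steps for straight and dicarboxylic chains, was at 4.89, 4.93 and 5.47 FPKM in WT libraries and 4.54, 4.53 and 5.16 FPKM in KO. The Hsd17b4 to Ehhadh ratio, which no scaling of libraries can change, was 3.96, 4.33 and 3.22 in WT and 5.50, 5.23 and 4.51 in KO. It did not overlap between the groups, but this pair was chosen after the values were seen.

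Acox3, the oxidase that opens the round for branched chains (mm10 chromosome 5, 35583040 to 35615352, plus strand), stood at 36.3, 32.002 and 36.6 FPKM in WT libraries and 28.3, 31.2 and 31.9 FPKM in KO. The KO libraries were all lower, with KO replicate 3 just under WT replicate 2. Means were 34.9 ± 2.55 and 30.4 ± 1.90 FPKM (SD, n = 3), a log2 difference of -0.19 with an interval from -0.40 to 0.02 (limma adjusted p = 0.34). Separation was lost under quantile normalization, with a common total and under median-of-ratios scaling, and the difference was 0.04 with the core macrophage covariate. Acox3 overlaps 4931431C16Rik on the opposite strand.

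The remaining peroxisomal genes overlapped between the groups. The thiolase Acaa1a was at 36.6, 44.2 and 37.8 FPKM in WT libraries and 42.9, 38.5 and 41.0 FPKM in KO. Scp2, a thiolase and sterol carrier, was at 28.7, 35.4 and 35.1 FPKM in WT libraries and 34.2, 34.4 and 35.2 FPKM in KO. Acaa1a may share reads with its near-identical copy Acaa1b, which was at most 0.145 FPKM. Slc22a14 and Myd88 overlap Acaa1a on the opposite strand in the annotation, and without a stated strand setting their reads cannot be told apart. Of the 32 genes, 21 overlap another annotated gene, and not every overlap is named here. Acot8, a thioesterase that ends chain shortening, was at 6.45 ± 0.552 and 5.57 ± 0.555 FPKM (SD, n = 3), with a log2 difference of -0.18 and an interval from -0.42 to 0.06. Crot, which makes carnitine esters of shortened chains for export, was at 5.11 ± 0.634 and 5.03 ± 0.303 FPKM. Pex11a, a factor of peroxisome division, had 39, 46 and 13 reads in WT (0.459, 0.532 and 0.160 FPKM) and 100, 48 and 36 reads in KO (1.11, 0.548 and 0.433 FPKM). KO replicate 1 was highest and WT replicate 3 lowest for Pex11a, and the groups overlapped.

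**Figure D3:**
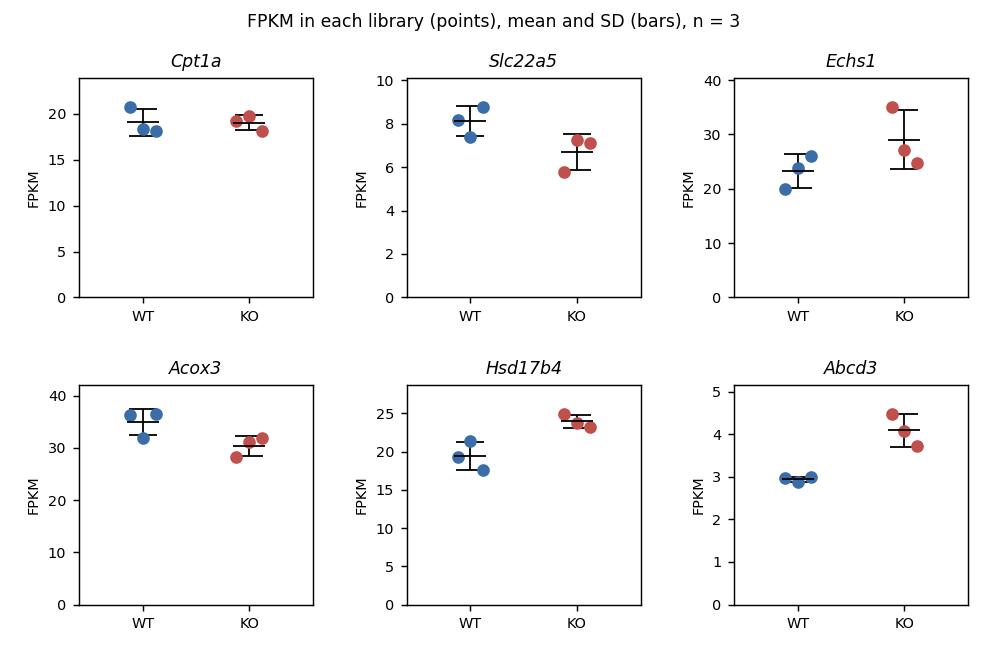
FPKM (y axis, from 0) of 6 fatty acid oxidation genes in each WT and KO library (points), with mean and SD (bars, n = 3). Hsd17b4 and Abcd3 lie higher and Slc22a5 and Acox3 lower in all 3 KO libraries, while Cpt1a and Echs1 overlap.

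To see whether the promoters of these genes share the element bound by PPAR and RXR, the window from 250 bases before to 50 bases after each RefSeq start site (GRCm38.p6) was searched on both strands. The element, DR1, was taken as the half-site AGGTCA, written 2 times with 1 free base between, and up to 2 mismatches in its 12 fixed bases were allowed. Windows were found for 26 of the 32 genes, and 3 of them (11.5%) held such a match, beside 1190 of 27025 genes with a window (4.4%). The 3 are shown because their levels can be set against the match, with the DR1-like stretch in capitals, 5′ to 3′ on the strand of the gene. For Echs1 (chr7:140116492-140116504, minus strand, match beginning at -83 with the start site as 0) and Etfa (chr9:55512308-55512320, minus strand, at -77, the match read on the other strand) the 250 bases before the start site are printed. For Slc25a20 (chr9:108662142-108662154, plus strand, at 6) the match is printed with 8 bases on either side.
Echs1: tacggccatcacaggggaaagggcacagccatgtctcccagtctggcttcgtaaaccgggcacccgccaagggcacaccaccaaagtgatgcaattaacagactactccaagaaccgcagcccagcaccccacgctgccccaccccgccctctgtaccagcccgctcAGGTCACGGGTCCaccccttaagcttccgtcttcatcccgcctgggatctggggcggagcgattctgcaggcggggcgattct
Etfa: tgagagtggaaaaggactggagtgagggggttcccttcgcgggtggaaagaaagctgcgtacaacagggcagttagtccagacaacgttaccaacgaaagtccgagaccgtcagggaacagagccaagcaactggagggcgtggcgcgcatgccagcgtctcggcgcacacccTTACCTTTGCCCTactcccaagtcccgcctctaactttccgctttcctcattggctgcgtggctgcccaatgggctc
Slc25a20: ctgaatgtAGGTGAAAGGTCGgcggagcc
The log2 differences between KO and WT were 0.30 for Echs1, -0.01 for Etfa and 0.03 for Slc25a20, all with intervals that include 0. The windows of Abcd3, Acox3 and Slc22a5 had no match with fewer than 4 mismatches, and Hsd17b4 and Decr1 were not searched here. A match is a description of letters and not a bound site, and PPAR elements of these genes may lie outside a window of 300 bases.

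The rest of the pathway was read from lists of further genes, for each of which the number called over all genes tested was 0. The counts of genes that separated are to be read beside 9.75% upward and 15.2% downward over all genes, and the medians beside -0.06. Of 13 tested genes of fatty acid uptake and activation, 5 separated upward and 0 downward, with a median log2 difference of 0.15. The acyl-CoA synthetase Acsl4 stood at 10.05, 7.07 and 6.94 FPKM in WT libraries and 12.7, 12.6 and 11.2 FPKM in KO (limma adjusted p = 0.13). The fatty acid translocase Cd36, a macrophage scavenger receptor, was at 19.0, 26.3 and 13.04 FPKM in WT libraries and 87.4, 43.03 and 30.7 FPKM in KO (limma adjusted p = 0.16). The transport protein Slc27a4 was at 9.60 ± 1.51 and 12.9 ± 0.926 FPKM (SD, n = 3). With the core macrophage level as a covariate, the differences were -0.14 in place of 1.34 for Cd36, 0.01 in place of 0.40 for Slc27a4 and 0.51 in place of 0.56 for Acsl4.

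A list of 20 tested genes held other β-oxidation enzymes and transporters and also genes of neighbouring acyl-CoA pathways, such as Ivd, Pcca and Phyh. Of these 20 genes, 1 separated upward and 1 downward, with a median of 0.01. Abcd2, a peroxisomal half-transporter for very long polyunsaturated chains, was the one higher, at 0.695, 1.03 and 0.636 FPKM in WT libraries and 3.90, 2.94 and 2.14 FPKM in KO. Its mean FPKM was 3.80-fold higher. Adding 1 before the log lowers the difference at such low values, and with 0.1 added it was 1.79. With 1 added the log2 difference was 1.14, with an interval from 0.73 to 1.56 and a limma adjusted p = 0.079. The adjusted limma p was 0.017 without WT replicate 2, the WT library nearest to KO in macrophage markers, and 0.11 to 0.31 without any other library, and with the core macrophage covariate the difference was 0.59. Acad10, an acyl-CoA dehydrogenase relative, was the one lower, at 3.51 ± 0.115 and 2.79 ± 0.0887 FPKM (SD, n = 3). Of 16 peroxisome biogenesis genes, 0 separated upward and 1 downward, Pex10, a ubiquitin ligase of the import machinery, at 4.29 ± 0.679 and 3.27 ± 0.209 FPKM, with a list median of -0.01.

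Among 10 tested PPAR receptors, partners and coactivators, 1 separated upward and 1 downward, with a median of -0.12. Rxra, the PPAR partner, was at 3.07, 5.36 and 2.46 FPKM in WT libraries and 10.1, 7.39 and 5.89 FPKM in KO, with a limma adjusted p = 0.14 that was 0.021 without WT replicate 2 and 0.16 to 0.44 without any other library. Its difference of 0.95 became -0.09 with the core macrophage covariate. Rxrb, a further RXR, was lower in all KO libraries, at 39.0 ± 3.93 and 33.6 ± 1.03 FPKM (SD, n = 3). Ppard, the receptor of the family with the highest level here, was at 12.9 ± 1.148 and 13.5 ± 0.678 FPKM, while Pparg reached at most 0.266 FPKM and the coactivator Ppargc1a at most 0.138 FPKM. Of 16 other textbook PPAR target genes, 5 could be tested; 3 separated upward and 0 downward, with a median of 0.27. Hilpda, an inhibitor of lipid breakdown at droplets, was at 6.77, 8.02 and 7.98 FPKM in WT libraries and 15.7, 12.6 and 13.5 FPKM in KO (limma adjusted p = 0.074, 0.015 without WT replicate 2 and 0.14 to 0.30 without any other library). Plin2, the droplet coat protein, was at 13.2, 20.7 and 9.83 FPKM in WT libraries and 49.1, 29.0 and 24.2 FPKM in KO (limma adjusted p = 0.14, 0.036 without WT replicate 2 and 0.15 to 0.42 without any other library). With the core macrophage covariate the difference was -0.12 in place of 1.17 for Plin2 and 0.66 in place of 0.80 for Hilpda. Klf10, a transcription factor, was at 3.31 ± 0.383 and 4.20 ± 0.572 FPKM. The kinase gene Pdk4, a strong PPARα target in liver, reached at most 0.136 FPKM.

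The mitochondrial pathways that receive the products of fatty acid oxidation had similar narrow ranges. Of 18 genes of the tricarboxylic acid cycle, 0 separated upward and 3 downward, with a median of 0.01. The isocitrate dehydrogenase subunits Idh3b and Idh3g stood at 73.9 ± 5.21 and 90.4 ± 3.95 FPKM in WT libraries and at 64.4 ± 1.48 and 81.5 ± 1.29 FPKM in KO (SD, n = 3). Sdha, of succinate dehydrogenase, was at 85.6 ± 1.59 and 82.6 ± 2.89 FPKM. Of 26 nuclear-encoded respiratory chain genes, 0 separated upward and 1 downward, Ndufs3 of complex I, at 55.3 ± 3.29 and 50.3 ± 1.599 FPKM, and the median was 0.05. All 18 and all 26 intervals lay within 1.5-fold.

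**Figure D4:**
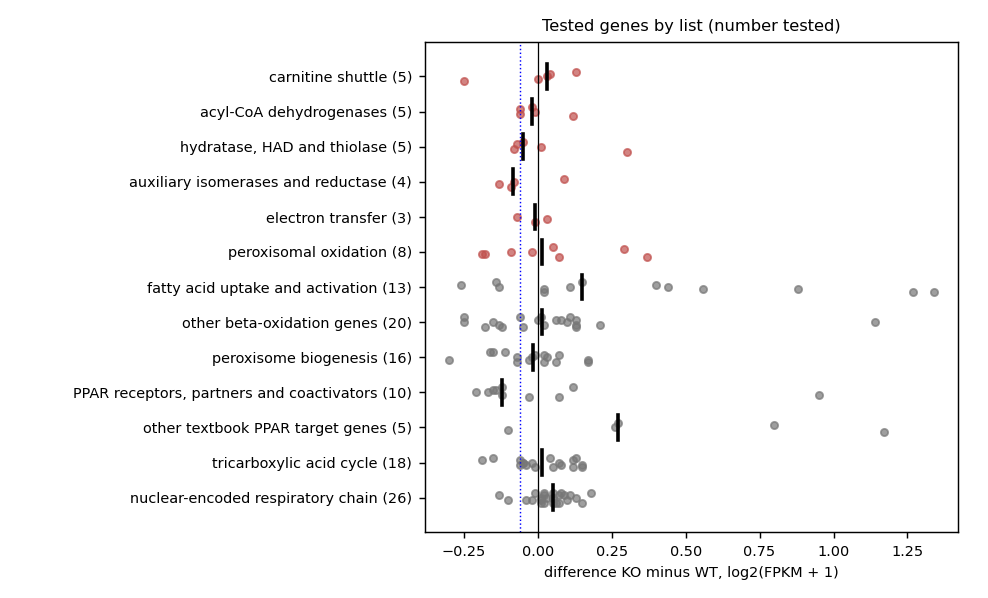
Difference between KO and WT (x axis, log2(FPKM + 1)) of each tested gene (points) by list, with list medians (black bars), fatty acid oxidation genes in red, other lists in grey and the median of all genes as a dotted line; HAD is hydroxyacyl-CoA dehydrogenase. Red points lie between -0.25 and 0.37, while the uptake, other β-oxidation, PPAR partner and PPAR target lists each have points beyond 0.80.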

How the data were processed

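FPKM were deposited by the authors, 1 table per library. RNA was extracted with TRIzol and libraries made with a VAHTS Universal V6 kit, per the labels' protocols. The genome build named is mm10, per the submitters' processing notes. Aligner, counter, strand setting and gene models: not given in the sources used here. Groups and replicate numbers came from sample titles. The gene members and lists were chosen with earlier results of these data known.

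The test, limma 3.58.1 under R 4.3.3 with eBayes and a mean-variance trend, used unscaled log2(FPKM + 1) of genes averaging 1 FPKM or more with Benjamini-Hochberg adjustment over all 10732 genes at 0.05. Fold changes on this scale understate the change of low genes. Library values were given for members whose groups did not overlap or whose unadjusted p was under 0.05, for the 5 highest, for Cpt1a, Cpt1b and Cpt2 and, beyond that rule, for members compared with a partner or chosen after their values were seen. From each further list up to 3 genes that separated were named by smallest p, and Cpt1c, Ppard, Pparg, Ppargc1a and Pdk4 after their values were seen. Reads were recovered as the smallest whole numbers that fit the 6 values of a gene within 0.002 reads, for 99.99% of 19331 genes above 0 in at least 2 libraries; a factor common to all 6 cannot be seen. Both the fit and the recovery were tested on simulated data. List symbols without an entry were not analysed here, and some list genes are not reported here. Positions and lengths came from GENCODE M21, promoters from RefSeq (GRCm38.p6). Other tools were Python 3.11.15, numpy 2.4.6, pandas 2.3.3 and matplotlib 3.10.9. Alternatives were other pseudocounts, filters and scalings, no trend, a replicate block, macrophage and B cell covariates, limma's voom on recovered reads, and leaving out each library.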

Additional observations from a re-analysis of the deposited data

How the results depend on the processing

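No fatty acid oxidation gene was called under any of the 18 alternatives; the lowest adjusted limma p was 0.066. Their median log2 difference of -0.01 was 0.05 under median-of-ratios scaling, which moved the median of all genes from -0.06 to 0.00, and -0.07 with the core macrophage covariate; it ran from -0.04 to 0.04 with 1 library left out. The 5 genes with separate groups were 3 with the filter at 5 FPKM, which leaves 26 fatty acid oxidation genes tested, and 6 to 9 with 1 library left out, where fewer samples make separation easier. A common total gave 4 (Abcd3, Hsd17b4, Eci1 and Acot8), median-of-ratios scaling 4 (Abcd3, Hsd17b4, Decr1 and Scp2) and quantile normalization 5, with Eci2 in place of Acox3. The 3 genes called among all genes were 6 with a pseudocount of 5, 5 by voom, 11 with the replicate block, and 0 with no filter, with the core macrophage covariate and with the B cell covariate (2648, 1244 and 352 at an unadjusted limma p under 0.05); the cause was not tested. With 1 library left out this count ran from 0 (without WT replicate 1, where 1706 had an unadjusted p under 0.05) to 552 (without WT replicate 2), and it was 1 without KO replicate 1 and 1 without KO replicate 2. The covariates differ between the groups themselves. With the core macrophage covariate, differences that changed sign included -0.40 for Etfb, -0.14 for Cd36, -0.09 for Rxra and -0.12 for Plin2. The fatty acid oxidation genes at an unadjusted limma p under 0.05 were then Acadvl, Eci1 and Etfb, in place of Abcd3 and Hsd17b4. With the B cell covariate there were 0. Deviations of same-numbered libraries from their group means correlated at -0.21, -0.38 and 0.27, and those of differently numbered libraries at -0.36 to 0.47. With 3 libraries per group, this cannot decide whether the numbers pair the libraries. The replicate block called no fatty acid oxidation gene. Depth limits Cpt1b, with 5 to 14 reads per library, and Ppara, with 1 to 23, where only large differences are detectable.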
